A study of Mus musculus with 9 samples.

Results

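Complexes II to V of the respiratory chain were followed through 40 genes, out of 16637 genes with a symbol on the arrays. The members were the genes whose annotated or updated symbol is Sdha to Sdhd, begins with Uqcr, Cox4, Cox5, Cox6, Cox7, Cox8 or Atp5, or is Cyc1 or Cycs. They were measured by 44 probes and comprised 4 genes of complex II, 8 of complex III, 15 of complex IV and 10 of complex V. Cycs, which encodes cytochrome c, matched no probe. The last 3 members matched only by an older symbol and belong to none of these complexes, namely Dmac2 (formerly Atp5sl), Dmac2l (formerly Atp5s) and Emc8 (formerly Cox4nb). Their values are given apart from the complexes.

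RNA came from a single hippocampus of each of 8 female mice, 2 per group, and was hybridised on 9 two-colour arrays. Wild-type (WT) mice, of a strain labelled 129SV with C57BL6, were taken at 3 months (mice 15 and 16) and at 12 months (mice 24 and 25). The 3xTG mice, a transgenic line whose strain label names APPSwe and tauP201L among its alleles, were taken at 3 months (mice 22 and 23) and at 12 months (mice 4 and 7). The line carries its alleles together, so the effect of a single allele cannot be told apart, and WT and 3xTG mice also differ in the background their labels name. Each of 3 comparisons rested on 3 arrays: WT at 12 over 3 months, 3xTG over WT at 3 months, and 3xTG over WT at 12 months. The mice recurred between arrays: the WT mice of 3 months were the reference in the first and second comparison, and the WT mice of 12 months were the test in the first and the reference in the third. The first comparison paired mice 25 and 15, 24 and 16, and 25 and 16 on its arrays 1, 2 and 3, the second 23 and 15, 22 and 15, and 22 and 16, and the third 4 and 24, 4 and 25, and 7 and 24.

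Complex II oxidises succinate and hands electrons to ubiquinone, complex III passes them from ubiquinol to cytochrome c, and complex IV, cytochrome c oxidase, uses them to reduce oxygen to water. Complexes III and IV pump protons across the inner mitochondrial membrane, and complex V, the ATP synthase, lets them flow back to make ATP, on which synaptic transmission in the hippocampus depends heavily. Complex II is built from nuclear genes alone, while the other complexes also hold subunits encoded by mitochondrial DNA, which the members do not include.

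All values are the deposited ratios of test over reference RNA, read as log2, after subtraction of the median of each array and averaging of the probes of a gene. No listed value as deposited lay within 0.5 of 0, and each array listed between 45.73% and 54.11% of its 29922 probes, so a missing value can be a small ratio or a spot left out for another reason. Of the 360 combinations of member and array, 212 were listed (58.9%, against 55.1% over all genes), each member was listed on 3 to 8 arrays, and none on all 9. Array medians before centring were 1.415, 2.335 and 1.955 in the first comparison, 0.843, -0.835 and 0.965 in the second, and -0.869, -0.872 and -1.71 in the third. Before centring, the listed values of members stood above 0 about equally often in each comparison, 48 of 70, 48 of 70 and 50 of 72. Over all listed probes this share was 74.44%, 87.32% and 81.08% on the arrays of the first comparison, 59.78%, 39.36% and 61.66% on those of the second, and 40.72%, 40.74% and 21.24% on those of the third. The differences between comparisons described below are therefore positions of the members relative to the other probes of the same array. For the 4 members with 2 probes (Atp5c1, Cox6a1, Cox6b1 and Sdhc), both probes were listed on 12 occasions and had the same sign on 6 of them, so single-probe values of the other members carry an uncertainty between probes that the spread between arrays does not show. A ratio gives no level, so the tissue could not be checked by the presence of its markers, and in whole hippocampus fewer cells of a type and less RNA per cell cannot be told apart.

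**Figure D1:**
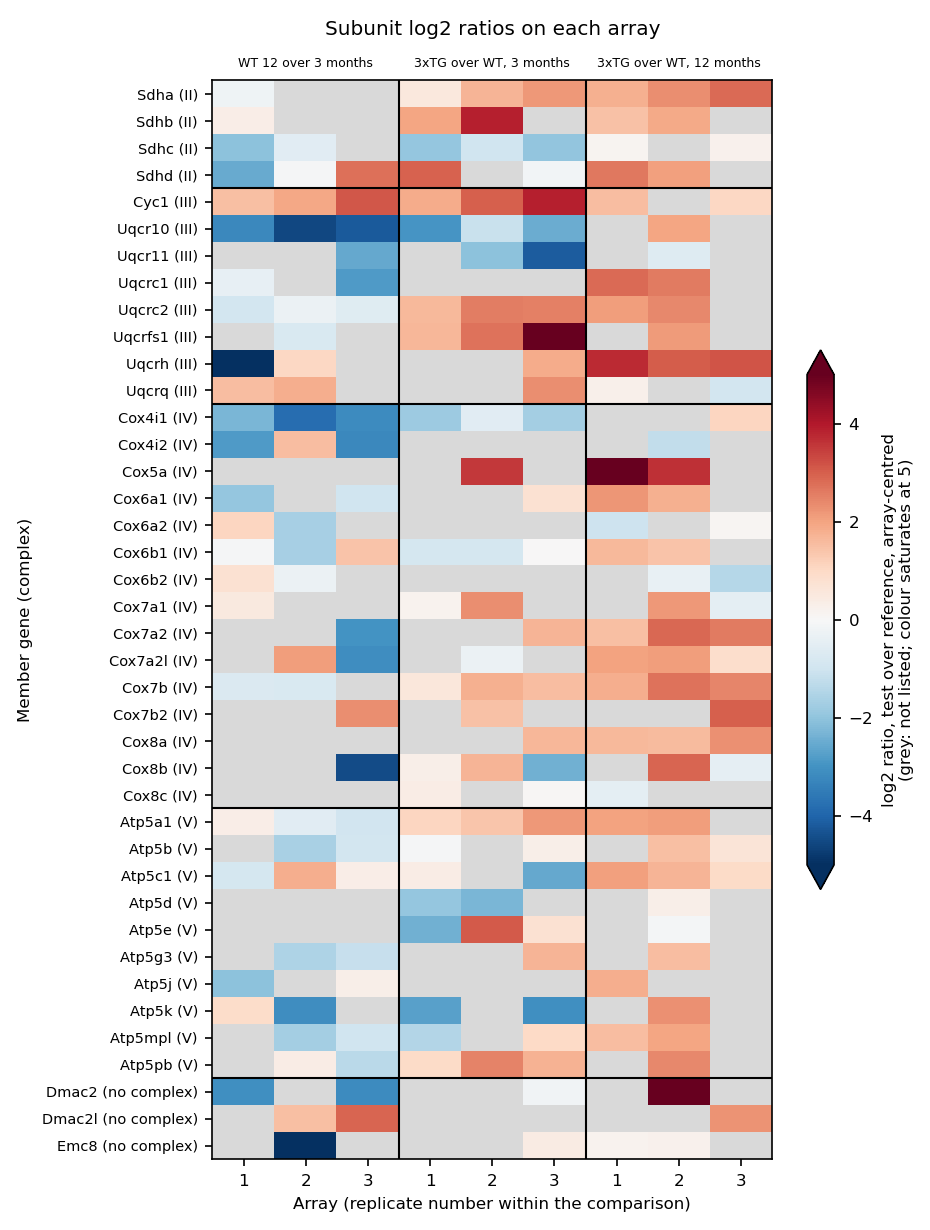
Log2 ratio of each member gene (rows, grouped by complex) on each of the 9 arrays (columns, by comparison), centred on the median of the array; red stands for higher and blue for lower in the test RNA, grey for a value not listed, and the colour saturates at a log2 ratio of 5. After centring 62 of the 72 listed values lie above 0 for 3xTG over WT at 12 months, and 23 of 70 for WT at 12 over 3 months; before centring the counts were 50 and 48.

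The first comparison set WT hippocampus at 12 months against 3 months. After centring, 47 of the 70 listed member values were below 0 (22 before centring), with a median of -0.82, and no member passed the test. Uqcr10 and Cox4i1 stood lowest among the members listed on all 3 arrays, and Cyc1 stood above 0 on each of them. Of 22 members tested 4 had a fitted log2 ratio above 0, with a median of -0.68. All 8071 genes tested had a median of -0.12, with 3789 above 0. Without centring both medians turned positive, at 1.17 and 1.75, with the members again below the other genes. Leaving out array 1 left 12 members tested, with a median of -0.29, and then all genes tested had a median of -0.33, so the members no longer lay below them. Marker genes of cell types lay low on these arrays too, with none passing the adjusted threshold: oligodendrocyte markers were above 0 in 0 of 15 listed values, neuronal markers in 6 of 14, astrocyte markers in 4 of 14, choroid plexus markers in 2 of 11, dentate granule cell markers in 3 of 10, endothelial markers in 4 of 8 and microglial markers in 8 of 13. Before centring 12 of the 15 oligodendrocyte values were above 0. The part of cell composition in the members' values was not tested.

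Complex III held the widest spread. Uqcr10, a small structural subunit, was at -3.21, -4.55 and -4.20 on the 3 arrays. Cyc1, the cytochrome c1 that reduces cytochrome c, was at 1.49, 1.94 and 3.11. Uqcrc2, a core subunit, was at -0.91, -0.31 and -0.61. On the same array, where centring has no part, Cyc1 exceeded Uqcr10 by 4.70, 6.49 and 7.30. These genes were set against each other because their values lay on opposite sides, so the differences are a description and not a test. Such differences keep their size but depend on the reading of the ratio: as Cy5 over Cy3 in place of test over reference they turn on every array with the test RNA in Cy3, here to 4.70, -6.49 and -7.30. Arrays of the same comparison with reversed dyes correlated at 0.197 to 0.308 as deposited, which is the sign that test over reference gives. As deposited, before centring, Uqcr10 was still below 0 on all 3 arrays (-1.80, -2.22 and -2.24) and Cyc1 above 0 (2.91, 4.27 and 5.06), whereas Uqcrc2 was above 0 on all 3 (0.51, 2.03 and 1.35). The fitted log2 ratio of Uqcr10 was -3.92 ± 0.84 (SE, limma, n = 3 arrays, adjusted p = 0.22), that of Cyc1 2.12 ± 0.80 (adjusted p = 0.356) and that of Uqcrc2 -0.62 ± 0.72 (adjusted p = 0.819). Other subunits of the complex were listed less often: Uqcrq, also called ubiquinone-binding protein, was at 1.53 and 1.82, Uqcrc1, the other core subunit, at -0.42 and -2.82, and Uqcrh, the hinge protein, at -5.22 and 1.04. Uqcr11 was listed once, at -2.54, and Uqcrfs1, the Rieske iron-sulfur protein, once at -0.78.

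Complex IV lay lower than the array median in 16 of its 23 listed values, with a median of -1.0. Cox4i1, the usual form of the regulatory subunit 4, was at -2.30, -3.82 and -3.16, and below 0 as deposited too (-0.89, -1.48 and -1.21). Its fitted log2 ratio was -3.03 ± 0.81 (SE, limma, n = 3 arrays, adjusted p = 0.243). Its alternative form Cox4i2, known from lung and low-oxygen conditions, was on both sides of 0, at -2.85, 1.53 and -3.21. Cox6b1, at the side of the complex that faces the intermembrane space, was at -0.05, -1.66 and 1.44, and its 2 probes were at 0.45 and -3.77 on array 2. The remaining complex IV genes were listed on 2 arrays or fewer, and Cox5a, Cox8a and Cox8c on none.

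In complex II, Sdhd, a membrane anchor, spanned the full range of the complex at -2.53, -0.06 and 2.76. Sdhc, the other anchor, was at -2.07 and -0.56, and the catalytic subunits Sdha and Sdhb were listed once each, at -0.22 and 0.34. In complex V, Atp5a1, a catalytic-head subunit, was at 0.32, -0.57 and -0.95, and Atp5c1, the central-stalk subunit, at -0.86, 1.81 and 0.33. Both changed side between arrays. The 1.81 of Atp5c1 is the mean of probes at 4.02 and -0.41. Of the other ATP synthase genes, Atp5b, which carries the catalytic sites, was at -1.62 and -0.92, Atp5g3, of the membrane ring, at -1.55 and -1.14, Atp5mpl at -1.71 and -0.99, Atp5k at 0.93 and -3.09, Atp5j at -2.04 and 0.31, and Atp5pb at 0.36 and -1.34. Atp5d and Atp5e were not listed.

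Each count is set beside its share over all genes. Adjusted over all genes, 0 of 22 members and 0% of all 8071 genes tested passed 0.05. At an unadjusted p under 0.05, 1 member lay above 0 (2.55% of all genes tested) and 2 lay below (9.63%). This balance rests on centring: without it 3 members lay above 0 and 1 below, and over all genes 1926 above and 85 below, against 206 and 777 with it. Among the 9 members listed on all 3 arrays, 1 was above 0 on all of them (15.6% of all genes so listed) and 3 were below (23.3%), which are Cyc1 and then Uqcr10, Cox4i1 and Uqcrc2. A different treatment of missing values changed the calls. With every missing value set to 0, as if each were a small ratio before centring, 248 of 16637 genes and 2 of 40 members passed. The members were Uqcr10 (-3.93, limma adjusted p = 0.0366) and Cox4i1 (-3.04, adjusted p = 0.0448). Centring then moved each missing value below 0 by the array median (1.415, 2.335 and 1.955), which favours calls below 0. Of the 248 genes 2 were above 0, and the median of all genes was -1.12. Uqcr10 and Cox4i1 had no missing value on these 3 arrays.

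**Figure D2:**
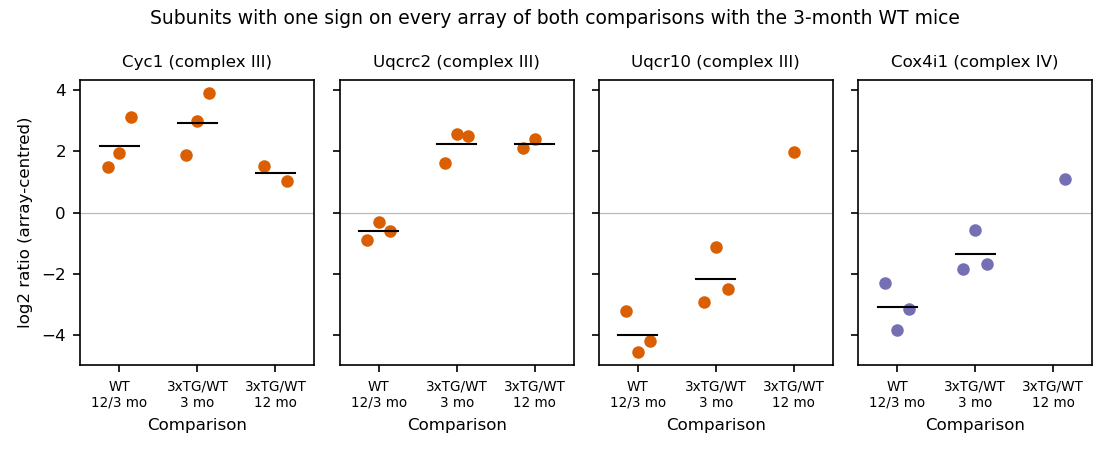
Log2 ratios (vertical axis, centred on the array median) of the subunits that had one sign on all arrays of WT at 12 over 3 months and of 3xTG over WT at 3 months; points are arrays and lines are means where more than 1 array was listed. Cyc1 lies above 0 and Uqcr10 and Cox4i1 below 0 in both comparisons, which share the 3-month WT mice as reference, while Uqcrc2 lies at -0.31 or lower in the first, where it was above 0 before centring, and at 1.62 or higher in the second.

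The second comparison asked how 3xTG differed from WT at 3 months. The members were divided: 45 of 70 listed values were above 0 (48 before centring), with a median of 0.67, and no member passed the test. In complex III Cyc1, Uqcrc2 and Uqcrfs1 stood above 0 on every array and Uqcr10 below it. Complex III lay above complex IV on each array by its median, by 1.42, 1.00 and 1.89, and above complex V by 2.38, 0.63 and 1.43. Centring has no part in these differences, but read as Cy5 over Cy3 they are -1.42, -1.0 and 1.89, and -2.38, -0.63 and 1.43. The median fitted log2 ratio was 0.13 over 19 members tested, of which 10 were above 0. It was 0.01 over 7670 genes tested, of which 3845 were above 0. Without centring these medians were 0.91 and 0.30. Centred on the genes listed on all 9 arrays, the median of the members was -0.07 and that of all genes tested -0.33. The median of the members was 1.68 without array 1, and -0.05 and -0.09 without arrays 2 and 3, so its sign depended on single arrays. Neuronal markers lay high on these arrays as well, above 0 in 15 of 20 listed values with a fitted median of 2.22, as did choroid plexus markers (9 of 10) and oligodendrocyte markers (8 of 11). Astrocyte markers were above 0 in 9 of 14, dentate granule cell markers in 4 of 10, microglial markers in 4 of 10 and endothelial markers in 2 of 7. None passed the adjusted threshold, and their part in the members' values was not tested.

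Uqcrfs1 was at 1.66, 2.71 and 5.01, with a fitted log2 ratio of 3.57 ± 0.91 (SE, limma, n = 3 arrays, adjusted p = 0.266). Cyc1 was at 1.86, 3.00 and 3.90, with a fitted value of 2.93 ± 0.80 (adjusted p = 0.261). Uqcrc2 was at 1.62, 2.57 and 2.50, with a fitted value of 2.22 ± 0.72 (adjusted p = 0.277). These subunits, which include both redox-active nuclear subunits of complex III, lay above 0 on all 3 arrays as deposited too. Uqcr10 was at -2.93, -1.13 and -2.49, below 0 as deposited, with a fitted value of -2.19 ± 0.84 (adjusted p = 0.329). On the same arrays Cyc1 exceeded Uqcr10 by 4.79, 4.12 and 6.39. Uqcr11, another small subunit, was listed on 2 arrays at -2.07 and -4.17, and Uqcrh and Uqcrq on 1 each, at 1.86 and 2.31. Uqcrc1 was not listed.

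In complex IV Cox4i1 was again on the low side, at -1.83, -0.56 and -1.69 (-0.98, -1.39 and -0.73 as deposited), with a fitted log2 ratio of -1.36 ± 0.81 (SE, limma, n = 3 arrays, adjusted p = 0.484). Cyc1 exceeded it by 3.68, 3.55 and 5.60. The values of both genes at 12 over 3 months have the same signs, and both comparisons use WT mice 15 and 16 as the reference, so they are not independent of each other. Cox7b, a small subunit needed for assembly, was on the other side at 0.57, 1.78 and 1.56. Cox8b, the heart and muscle form of subunit 8, was at 0.29, 1.69 and -2.42, and Cox6b1 at -0.87, -0.87 and 0.02.

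Complex II was split as well. Sdha, the flavoprotein that binds succinate, was at 0.51, 1.68 and 2.17, and Sdhb, the iron-sulfur subunit, at 1.99 and 3.89. Sdhc was at -1.95, -0.98 and -1.96, with a fitted log2 ratio of -1.74 ± 0.78 (SE, limma, n = 3 arrays, adjusted p = 0.379). Its 2 probes were far apart on array 3, at 0.18 and -4.09, so its value there is uncertain, and with one of the probes in place of their mean its fitted ratio was -0.81. Sdhd was at 2.93 and -0.13.

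In complex V, Atp5a1 was at 1.07, 1.40 and 2.16 and Atp5pb, part of the peripheral stalk, at 0.96, 2.47 and 1.73. Atp5e, of the central stalk, was at -2.41, 3.06 and 0.77, the widest range of the complex. Atp5k, a small membrane subunit, was at -2.73 and -3.06, and Atp5d at -1.95 and -2.30. Atp5b was near the array median, at -0.04 and 0.30.

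Against the background, 0 of 19 members and 0% of the 7670 genes tested passed the adjusted threshold. At an unadjusted p under 0.05, 4 members lay above 0 (8.11% of all genes tested) and 1 below (5.76%). Without centring there were 5 and 1, and with centring on the genes listed on all 9 arrays 3 and 3, where the counts over all genes were 479 above and 663 below, against 622 and 442 with centring on the array median. Of the 13 members listed on all 3 arrays, 7 were above 0 on all of them (28.4% of all genes so listed) and 3 below (19.8%).

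The third comparison set 3xTG against WT at 12 months. Read as test over reference, the members lay above the array median together: 62 of 72 listed values were above 0 (50 before centring), with a median of 1.82, and all 7 members listed on all 3 arrays were above 0 on each, as were 30.4% of all genes so listed. For Atp5c1, which is among these 7, no single probe was listed on all 3 arrays. No member and no other gene passed the adjusted threshold. The median fitted log2 ratio was 1.56 over 22 members tested, of which 19 were above 0. That of all 7874 genes tested was 0.33, with 4518 above 0. The medians were 0.37 and -0.86 without centring, and 0.71 and -0.44 with centring on the genes listed on all 9 arrays. With the deposited ratios read as Cy5 over Cy3 in place of test over reference, the median of the members was -0.74.

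By array the median of the listed members was 1.79, 2.06 and 0.98, where the listed genes as a whole had 0.20, 0.18 and 0.15. Arrays 1 and 2 used 3xTG mouse 4 and array 3 used mouse 7. On array 3 the members above 0 numbered 14 of 18, and only 7 of 18 as deposited. This array had the lowest median of all, and after centring no probe value can fall between 1.21 and 2.21 on it. Among genes with 1 probe whose mean on the other 2 arrays lay in that interval, 45.7% were listed on array 3, against 52.4% of those outside it; among members with 1 probe these were 4 of 7 and 2 of 7. Without array 3 the median fitted log2 ratio of the members was 2.23, and the array with mouse 7 had the lowest member median of the 3. It was also the only one of the 3 with the test RNA in Cy5. Mouse and dye therefore cannot be told apart here, and whether the mice differ was not tested.

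**Figure D3:**
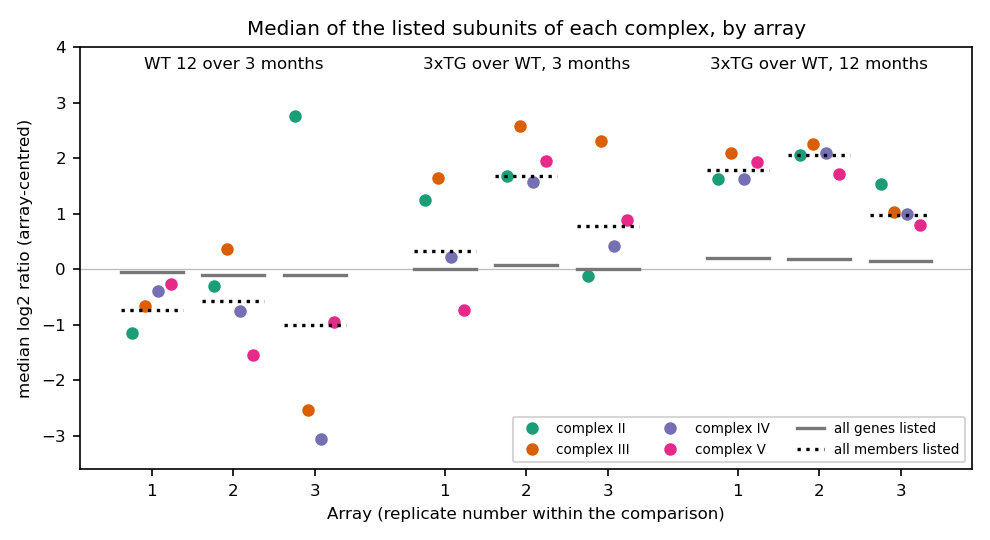
Median log2 ratio (vertical axis, centred on the array median) of the listed subunits of each complex on each array (horizontal axis); dotted lines are the median of all listed members and grey lines that of all listed genes. For 3xTG over WT at 12 months the complexes lie between 0.80 and 2.26 on all 3 arrays, above the grey lines; with the array medians added back, complexes on array 3 lie between -0.91 and -0.18.

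By listed values all 4 complexes shared this position. Complex II had 9 of 9 listed values above 0 (median 1.91), complex III 12 of 14 (2.11), complex IV 23 of 30 (1.71) and complex V 14 of 15 (1.71). By fitted log2 ratio the median of complex II was 0.53 over 3 genes (Sdha 2.49, Sdhd 0.53 and Sdhc 0.21). That of all genes tested was 0.33. The 0.53 is the value of Sdhd, listed at 2.63 and 2.06 on arrays 1 and 2, both with the test RNA in Cy3. It moves with the dye term, and Sdhb, at 1.45 and 1.91 on the same arrays, could not be tested with that term. Whether complex II differs from the other complexes therefore cannot be read from this median. Complexes III, IV and V had fitted medians of 2.23, 1.56 and 1.93. Without centring the 4 medians were -0.52, 1.45, 0.37 and 0.92, against -0.86 for all genes. The difference between the medians of complexes III and IV was 0.48, 0.16 and 0.04 on arrays 1, 2 and 3.

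Sdha was at 1.79, 2.34 and 2.85, all above 0 as deposited, with a fitted log2 ratio of 2.49 ± 0.77 (SE, limma, n = 3 arrays, adjusted p = 0.239). Cox7b was at 1.82, 2.73 and 2.43, with a fitted value of 2.38 ± 0.73 (adjusted p = 0.239). Cox7a2, the liver-type form of subunit 7a that most tissues use, was at 1.50, 2.86 and 2.60, with a fitted value of 2.43 ± 0.93 (adjusted p = 0.315). Cox8a, the general form of subunit 8, was at 1.62, 1.57 and 2.27, and Uqcrh at 3.74, 3.03 and 3.14. Each of these 5 genes was above 0 on all 3 arrays before centring as well. Atp5c1 (2.07, 1.71 and 0.94) and Cox7a2l, a factor that joins complexes III and IV into supercomplexes (2.02, 2.10 and 0.89), were above 0 on array 3 only after centring. The values of Atp5c1 on arrays 1 and 2 come from a different probe than that on array 3. These 2 probes had opposite signs on both arrays that listed both, at -0.41 and 4.02 in WT ageing and at 2.23 and -7.34 at 3 months.

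Members listed on 2 arrays mostly lay on the same side: 13 of 18 were above 0 on both. The share of all genes so listed was not counted, so this count has no background beside it. Cox5a, a matrix-side subunit of complex IV, was the highest of them at 5.24 and 3.64. Uqcrc1 was at 2.82 and 2.59, Uqcrc2 at 2.10 and 2.39, Atp5a1 at 2.03 and 2.09, Sdhd at 2.63 and 2.06, Sdhb at 1.45 and 1.91, and Cox6a1 at 2.22 and 1.79. These genes and Cox5a were listed on arrays 1 and 2, which used the same 3xTG mouse 4 in the same dye. Their values thus come from a single 3xTG animal. For members listed on arrays 1 and 2 alone, both with the test RNA in Cy3, the fitted value moves with the dye term: it was 0.53 for Sdhd and 3.90 for Uqcrc1. Cyc1, high in the other comparisons, was at 1.53 and 1.03, and Uqcr10 and Cox4i1, low in them, were listed once each, at 1.96 and 1.09. The 12-month value of Uqcr10 comes from mouse 4 and that of Cox4i1 from mouse 7, with no second array for either.

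**Figure D4:**
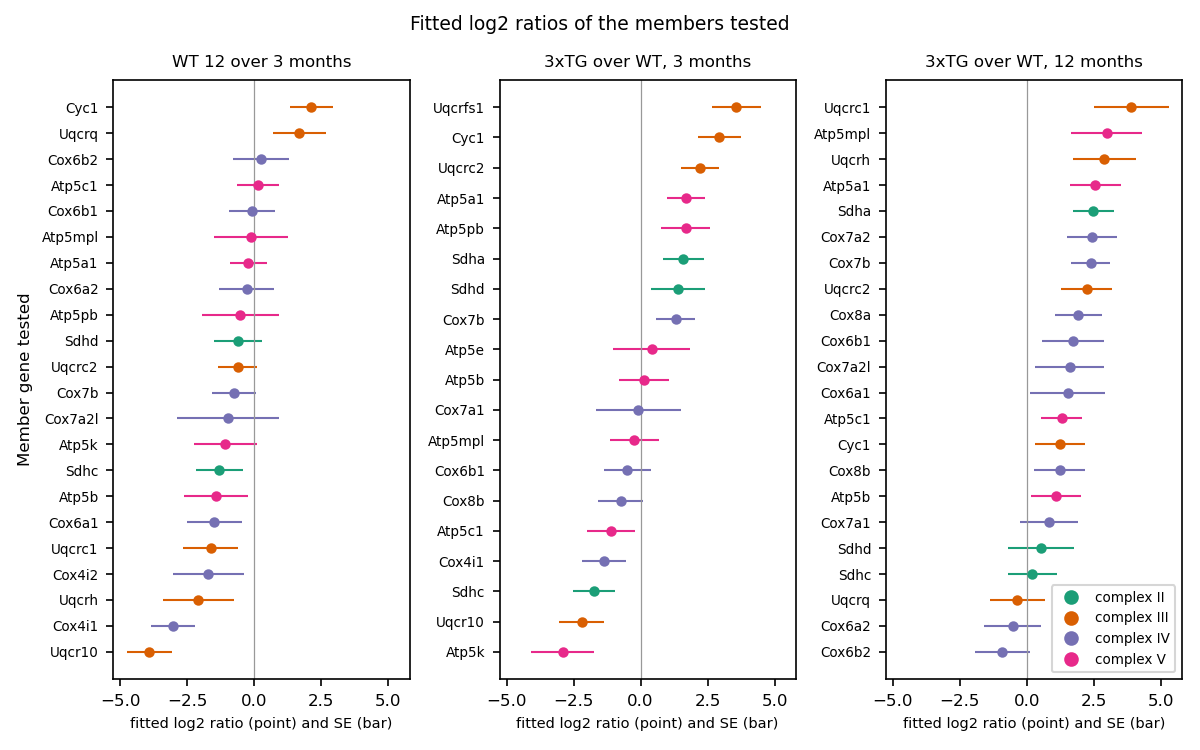
Fitted log2 ratio (horizontal axis, points) and its SE (bars) for each member tested in the 3 comparisons, coloured by complex and ordered by value. At 12 months 19 of 22 members lie above 0, against 10 of 19 at 3 months and 4 of 22 for WT ageing. Over all genes tested the counts were 4518 of 7874, 3845 of 7670 and 3789 of 8071 in the same order. Without centring the median of the members was 0.37, 0.91 and 1.17 in this order.

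Within complex IV the subunits can be set apart by tissue range. Several subunits have one form found in most tissues and another restricted to heart and skeletal muscle (Cox6a2, Cox7a1, Cox8b), testis (Cox6b2, Cox7b2, Cox8c) or lung (Cox4i2). This split into 8 general and 7 restricted forms was chosen after the values were seen and is a description. At 12 months the general forms were above 0 in 19 of 19 listed values, from 0.89 to 5.24 with a median of 2.02. The restricted forms were above 0 in 4 of 11, from -1.44 to 2.97 with a median of -0.44. Since the ratios give no level, whether the restricted forms were expressed above background in hippocampus could not be checked. Their ratios may then not measure these transcripts. The median of the general forms exceeded that of the restricted forms by 2.59, 1.21 and 2.72 on the 3 arrays, which centring does not affect. Read as Cy5 over Cy3 these differences are -2.59, -1.21 and 2.72. Cox6b2 was at -0.38 and -1.44 and Cox6a2 at -1.04 and 0.08, whereas their general forms Cox6b1 and Cox6a1 were at 1.62 and 1.44, and at 2.22 and 1.79. Cox7b2, at 2.97, and Cox8b and Cox7a1 on array 2, at 2.91 and 2.15, were exceptions. At 3 months the same difference was -1.16, -1.97 and 2.35, and for WT ageing it was -1.96, -0.93 and 0.21, so it had no common sign there under the reading as test over reference. Read as Cy5 over Cy3 it was 1.16, 1.97 and 2.35 at 3 months, all of one sign, and -1.96, 0.93 and -0.21 for WT ageing.

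**Figure D5:**
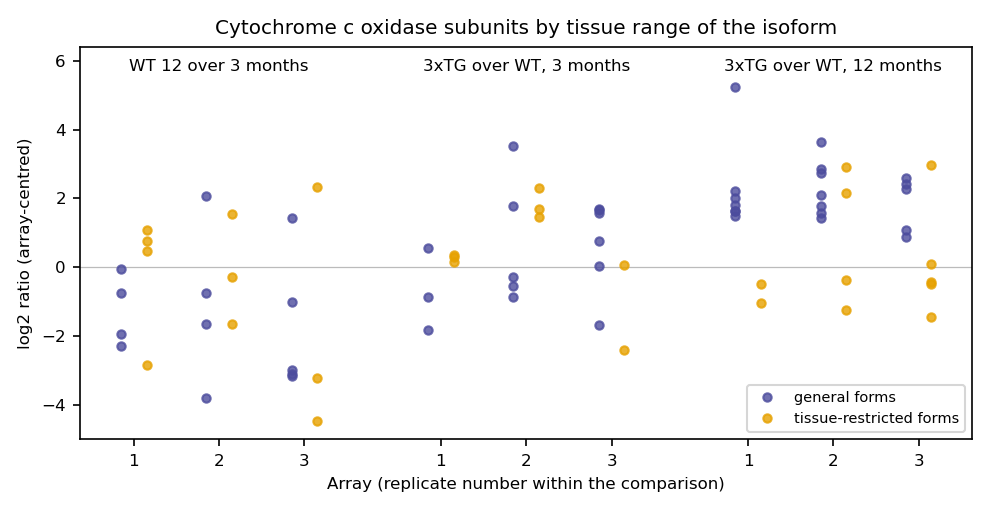
Log2 ratios (vertical axis, centred on the array median) of complex IV subunits on each array (horizontal axis), with general forms in blue and tissue-restricted forms in yellow, each point a gene. For 3xTG over WT at 12 months all 19 listed values of general forms lie above 0, and 4 of 11 values of restricted forms do.

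At an unadjusted p under 0.05 in this comparison, 7 members lay above 0 (12.5% of all genes tested) and 0 below (2.92%). Among the 7, Atp5a1, Uqcrc1 and Uqcrc2 were listed only on the arrays of 3xTG mouse 4. Without centring, and with centring on the genes listed on all 9 arrays, 0 members lay past this p in either direction. Over all genes the counts above and below 0 were 983 and 230 with centring on the array median, 225 and 962 without centring, and 448 and 621 with centring on the genes listed on all 9 arrays. With the adjusted threshold 0 of 22 members and 0% of 7874 genes passed. Of all genes listed on all 3 arrays 16.3% were below 0 on all of them, and none of the 7 members so listed was.

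Other gene groups also had medians above 0, so the position is not shown to be particular to complexes II to V. Complex I subunits had a median of 2.35 (17 of 20 tested above 0), cytosolic ribosomal proteins 2.00 (14 of 16) and mitochondrial ribosomal proteins 1.14 (27 of 35). By array the median of the members minus that of complex I was -0.31, 0.02 and -1.50. Cell-type markers, none of which passed the adjusted threshold, varied by type. Astrocyte markers were above 0 in 11 of 15 listed values (fitted median 1.87 over 4 tested) and neuronal markers in 11 of 17 (0.70 over 6 tested, with array medians of 1.56, 2.03 and 0.03). Oligodendrocyte markers were above 0 in 6 of 9 listed values, microglial markers in 8 of 15, choroid plexus markers in 3 of 10, dentate granule cell markers in 4 of 8 and endothelial markers in 1 of 4, and the single blood marker on the array was not tested. The part of cell composition in the members' values was not tested.

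The change of the genotype difference with age was tested in the same fit. The fitted ratio at 12 months minus that at 3 months had a median of 0.94 over 14 members, with 11 above 0. Over 5653 genes tested the median was 0.42, with 3327 above 0. Without centring these medians were -0.41 and -0.98. No member passed the adjusted threshold (0% of all genes tested), and 0 members had an unadjusted p under 0.05 in either direction (5.22% of all genes tested above 0 and 2.14% below). By its gene means Sdhc was below 0 on every listed array at 3 months (mean -1.63) and above 0 on those at 12 months (0.13 and 0.21), but neither of its probes showed this alone. One was at -1.97, -0.98 and 0.18 at 3 months and at 0.13 and 0.52 at 12 months, and the other at -1.94 and -4.09 and then at -0.11, and the 12-month gene means lay below 0 before centring (-0.74 and -1.50). The fitted difference for Sdhc was 1.95 ± 1.20 (SE, limma adjusted p = 0.689). Cyc1, at -1.69 ± 1.24 (adjusted p = 0.726), was on the opposite side, and Uqcrc2 showed a difference of 0.01 ± 1.14 (adjusted p = 0.995).

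Of 41 assembly factors and regulators of these complexes on the array, 18 were tested for WT ageing, 17 for genotype at 3 months and 22 for genotype at 12 months. None passed, and 9, 8 and 16 were above 0, with medians of 0.15, -0.04 and 1.40. At an unadjusted p under 0.05, 1, 3 and 6 lay above 0 (2.55%, 8.11% and 12.5% of all genes tested) and 3, 0 and 0 below (9.63%, 5.76% and 2.92%). In WT ageing Cox16, an assembly factor of complex IV, was at -3.50 ± 1.13 (SE, limma adjusted p = 0.276), Etfb, a subunit of the electron transfer flavoprotein, at -3.00 ± 0.89 (adjusted p = 0.258) and Etfdh, which passes its electrons to ubiquinone, at 1.53 ± 0.90 (adjusted p = 0.61). At 3 months Surf1, an assembly factor of complex IV, was at 2.62 ± 0.93 (adjusted p = 0.309), Etfb at -1.92 ± 0.89 (adjusted p = 0.389) and Cox11, a copper chaperone of complex IV, at 3.70 ± 0.91 (adjusted p = 0.251). The values of Cox11 on the arrays were 3.63, 3.98 and 3.03 at 3 months, and 1.74, 2.00 and 4.87 at 12 months, where its fitted ratio was 3.08 ± 0.91 (adjusted p = 0.239). Cox18, which helps to insert a catalytic subunit, was at 12 months at 2.79 ± 0.86 (adjusted p = 0.239) and Cox14 at 2.87 ± 0.90 (adjusted p = 0.251). Each of these genes had one sign on all 3 arrays of the comparison.

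Promoters of respiratory-chain genes are known for sites of nuclear respiratory factor 1 (NRF1) and of ETS factors such as GABPA, and were searched for GCATGCGC (NRF1), CCGGAAG (ETS), AAGATGGC (YY1) and TCAAGGTCA (ESRRA) on both strands. RefSeq promoters (GRCm38.p6, from 250 bases before to 50 after the start site) were matched for 29 of 40 members. Members without an entry were Sdhc, Cyc1, Uqcrc2, Uqcrq, Cox4i1, Cox4i2, Cox6a2, Cox8c, Atp5a1, Atp5mpl and Emc8. NRF1 letters stood in 5 of the 29 (17.2%, against 3.0% of all 27025 genes with a promoter), ETS letters in 10 (34.5% against 9.9%), YY1 letters in 3 (10.3% against 3.2%) and ESRRA letters in 2 (6.9% against 0.5%). The NRF1 letters overlap their own reverse complement by all but 2 bases where both strands matched. In all, 14 of the 29 (48.3%, against 15.3% of all genes) held at least 1 of the motifs.

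Promoters are shown for some of the members named above, all on the minus strand. Uqcrh (chr4:116075021-116075320) and Cox8a (chr19:7217567-7217866) stood above 0 on all arrays at 12 months. Cox6a1 (chr5:115348909-115349208) is a general form with both NRF1 and ETS letters. Uqcr10 (chr11:4704295-4704594) was the lowest member in WT ageing among those listed on all 3 arrays. Capitals mark the motif letters, in either orientation.
Uqcrh: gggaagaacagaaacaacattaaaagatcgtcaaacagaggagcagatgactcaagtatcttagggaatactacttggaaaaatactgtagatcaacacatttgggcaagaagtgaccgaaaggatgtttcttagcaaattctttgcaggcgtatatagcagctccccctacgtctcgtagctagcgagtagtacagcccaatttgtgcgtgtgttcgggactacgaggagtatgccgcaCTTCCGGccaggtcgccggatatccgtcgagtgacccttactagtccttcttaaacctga
Cox8a: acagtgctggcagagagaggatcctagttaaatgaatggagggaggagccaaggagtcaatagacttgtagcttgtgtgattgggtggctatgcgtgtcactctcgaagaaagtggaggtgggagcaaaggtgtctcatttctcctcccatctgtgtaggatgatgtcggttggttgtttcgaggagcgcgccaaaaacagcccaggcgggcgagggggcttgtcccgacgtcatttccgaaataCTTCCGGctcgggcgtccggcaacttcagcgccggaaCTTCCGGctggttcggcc
Cox6a1: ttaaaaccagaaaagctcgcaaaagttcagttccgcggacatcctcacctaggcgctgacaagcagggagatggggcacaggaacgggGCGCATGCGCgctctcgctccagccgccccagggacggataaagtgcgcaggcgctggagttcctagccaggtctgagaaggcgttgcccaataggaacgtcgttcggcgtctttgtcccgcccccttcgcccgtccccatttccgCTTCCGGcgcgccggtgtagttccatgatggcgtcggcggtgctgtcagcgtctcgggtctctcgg
Uqcr10: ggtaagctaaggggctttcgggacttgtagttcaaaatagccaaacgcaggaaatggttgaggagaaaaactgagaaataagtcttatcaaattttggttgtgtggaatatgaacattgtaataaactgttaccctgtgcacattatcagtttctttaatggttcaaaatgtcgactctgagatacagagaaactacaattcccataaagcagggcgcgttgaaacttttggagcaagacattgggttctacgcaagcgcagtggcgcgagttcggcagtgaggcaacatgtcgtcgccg
In Uqcrh the ETS letters begin 10 bases before the start site, and in Cox8a they begin 5 bases before and at base 33 after it. Cox6a1 holds NRF1 letters in both orientations and ETS letters 16 bases before the start site, and none of the letters searched stand in this window of Uqcr10. None stand either in the promoters of Sdha, Cox7a2, Cox7a2l, Cox7b and Atp5c1, the other members above 0 on all arrays at 12 months. A link between the letters and the ratios was not tested. A match of letters is a description of the sequence and not a measured binding site.

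The 3 members outside the complexes were listed 5, 2 and 4 times in the 3 comparisons. Dmac2, which takes part in complex I assembly, was at -3.08 and -3.16 in WT ageing, at -0.17 at 3 months and at 5.19 at 12 months. Dmac2l was at 1.49 and 2.90 in WT ageing and at 2.26 at 12 months. Emc8, of the membrane protein complex of the endoplasmic reticulum, was listed once in WT ageing at -6.91, the lowest value of any member, once at 3 months at 0.40, and at 0.17 and 0.23 at 12 months.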

How the data were processed

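Two-colour ratios of hippocampal RNA from 8 mice on 9 arrays were analysed. The authors deposited 1 log ratio per probe and array; which log base, scanner, background correction, filter and normalization they used is not given in the sources used here. The deposited values were taken as log2. Per the labels' protocols, RNA was linearly amplified and labelled with Cy5 or Cy3. Test over reference was taken as the direction, from the channel names in the labels. Within a comparison, arrays with the dyes reversed correlated at 0.197 to 0.308 across probes. Ratios of Cy5 over Cy3 would change sign between such arrays for a difference between the RNAs. Read as Cy5 over Cy3, 293, 272 and 329 genes had an unadjusted p under 0.05 (limma) in the 3 comparisons. The counts were 983, 1064 and 1213 as test over reference. The extract protocol text of 6 arrays of 3xTG mice names a WT mouse for the test RNA, and titles, sources and genotypes were used instead. A part of the strain label is not reported here. The deposited ratios give no intensities, so the stated precision could not draw on them. It rests on the spread between arrays, which share mice, so the arrays are not independent animals. That spread does not show the disagreement between probes of a gene, and it leaves out values that were not listed.

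The median of the listed values was subtracted on each array, and probes of a gene were averaged. Of 29922 probes 21020 had 1 symbol; of 16675 symbols 13905 were current in RefSeq GRCm38.p6, 2728 were updated and 42 kept. Each gene was fitted by generalised least squares over all 9 arrays, with a coefficient per comparison, a dye term, and a covariance from shared mice (variance ratio 0.115, restricted maximum likelihood over 516 complete genes). Genes with values on 2 or 3 arrays of a comparison were tested if the ratio could be separated from the dye term and residual degrees of freedom remained. This left 22, 19 and 22 members tested in the 3 comparisons, against 26, 23 and 25 without the dye term. Variances were moderated in limma 3.58.1 (R 4.3.3), and p-values were adjusted by Benjamini-Hochberg over all genes tested, threshold 0.05. The label limma stands for this fit with its moderation. The p-values measure the spread between arrays of 2 mice per group. The fit was tested on simulated data. Members and lists were chosen with earlier results of these data known. Per-array values are given for members listed on all 3 arrays, and fits for up to 3 per direction of smallest p with one sign on all 3 arrays; other members are given by value, range or count. The fitted values of Sdhd and Uqcrc1 at 12 months and the contrasts with age were named after their values were seen. So were the pairs of genes set against each other on the same arrays. Alternatives covered centring, covariance, dye term, direction, probe choice, filters, missing values, array numbers in the labels, a replicate block and leaving out each array.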

Additional observations from a re-analysis of the deposited data

How the results depend on the processing

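The median fitted log2 ratio of the members changed with several choices. Without centring it was 1.17 for WT ageing, 0.91 for genotype at 3 months, 0.37 at 12 months and -0.41 for the difference between ages; the cause lies in the array medians subtracted. Read as Cy5 over Cy3 it was 0.33 for WT ageing, -0.74 for genotype at 12 months and -0.54 for the difference. For WT ageing it was also -0.42 with at least 2 arrays in every comparison and -0.33 with a term separating low from high array numbers in the labels. For genotype at 3 months it was 0.87 with the probe listed on most arrays and 1.25 with any gene that could be fitted. The cause of these changes was not tested. With missing values set to 0 the median of the members was -1.36 for WT ageing, and that of all genes tested moved from -0.12 to -1.12. Centring on the genes listed on all 9 arrays gave 0.71 for the members at 12 months, and moved all genes tested from 0.33 to -0.44. In both settings all genes shifted with the members. With missing values set to 0, 248 of 16637 genes and 2 of 40 members were called for WT ageing, and 6 genes and 0 members at 3 months. Centring then moves each missing value by the array median, which in WT ageing favours calls below 0.

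Leaving out 1 array gave medians from -0.91 to -0.29 for WT ageing, -0.09 to 1.68 at 3 months, 1.33 to 2.23 at 12 months and 0.71 to 1.27 for the difference; array 1 of the 3-month comparison gave the 1.68 and array 1 of WT ageing the -0.29. With a replicate block the medians were -0.59, 0.09, 1.67 and 0.87 and no gene was called. Same-numbered arrays correlated at -0.053 to 0.084 over the genes listed on all 9 arrays, after the mean of each comparison was subtracted. Whether same-numbered arrays shared a processing step was not tested. Among named genes the Cy5 over Cy3 reading reversed Cyc1 (-0.45), Uqcr10 (0.80), Cox4i1 (0.81) and Uqcrc2 (0.14) for WT ageing, Uqcrc2 (-0.15) at 3 months and Cox7b (-0.25) at 12 months, and Uqcrc2 was at 1.29 for WT ageing without centring.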
